A study of Mus musculus with 6 samples.

Results

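The ERBB receptors and the ligands that bind them were followed in the mRNA table of inguinal white adipose tissue (iWAT). The members are the 4 receptor genes Egfr, Erbb2, Erbb3 and Erbb4 and the 6 ligand genes Nrg4, Btc, Hbegf, Egf, Areg and Ereg, found by symbol, and all 10 were among the 22564 genes of the table. The study kept 2-month-old male C57BL/6 mice (C57BL/6J in its methods) for 7 days either at 4 °C (cold, 3 samples) or at 30 °C, a temperature that asks mice for no extra heat production (thermoneutral, 3 samples), to ask which genes change as beige fat is activated. The labels give no transgene, deletion or drug for either group. The labels name the source as adipocytes and the tissue as iWAT, and they do not say whether a sample was 1 mouse or a pool, so p-values measure only the spread between these samples. Each sample has 1 library, and the table gives each gene a fragment count divided by a size factor of its library (scaled count) and an FPKM value, which also divides by transcript length.

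ERBB receptors are tyrosine kinases of the cell surface that pair when an EGF-like ligand binds, and then signal through RAS and MAP kinases and through PI3 kinase. Most of their ligands are made as membrane proteins and are cut free by proteases called sheddases. In adipose tissue the family is known above all for neuregulin 4, a factor secreted by brown and beige adipocytes of the mouse that binds ERBB4 and ERBB3.

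Only the 11650 genes that reached an FPKM of 1 or more in 3 or more libraries were tested. Their scaled counts, plus 1 and on the log2 scale, were compared between the groups by limma, and calls were made at a Benjamini-Hochberg adjusted p under 0.05. On this scale the median gene had a log2 fold change of -0.54, cold over thermoneutral, so each change is also given after every library was centred on its median gene, where that shift is -0.01. The scaled counts sum to 17434977 to 17588754 in cold and 19276924 to 19603526 in thermoneutral libraries, an estimated 15262070 to 16936375 and 18894385 to 23636742 fragments. The thermogenic markers rose in 6 of 6 cases, beside 6.24% of all tested genes, led by Ucp1 with a log2 fold change of 9.46. Single libraries stood apart. Thermoneutral replicate 1 held 32396 scaled counts over 7 epithelial markers, against 72.6 and 76.3 in the other thermoneutral libraries and 19.7 to 54.8 in cold. Its 6 mature adipocyte markers summed to 291270, against 530120 and 560180 in the other thermoneutral libraries and 416880 to 530220 in cold, and its Spearman correlations with the other thermoneutral libraries were 0.906 and 0.906 against 0.991 between those. Cold replicate 2 held 202840 scaled counts over 6 skeletal muscle markers, against 296 and 361 in the other cold libraries and 2999 to 9796 in thermoneutral. The mitochondrial gene mt-Co1 is listed at 0 in all 6 libraries so a 0 in the table need not mean that no transcript was present. In the cold libraries mt-Cytb and mt-Nd5 are listed at 0, against 327559 to 400668 and 58004 to 71539.9 scaled counts in thermoneutral libraries. Whether cold and thermoneutral libraries were counted alike is not given in the sources used here, and every fold change of cold over thermoneutral carries that doubt.

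Neuregulin 4 dominated the ligands among the members, and the EGF receptor gene fell most clearly among the receptors. Of the 10 members, 5 passed the filter on low values (Egfr, Erbb2, Erbb3, Btc and Nrg4). Nrg4 rose, as did 6.24% of all tested genes, and Egfr and Erbb2 fell, as did 35.2% of all tested genes. With median centring Nrg4 rose and Egfr fell, beside 10.3% and 5.35% of tested genes, and Erbb2 was not called. Erbb3 and Btc reached an FPKM of 1 only in thermoneutral libraries and so passed the filter through the group where they were higher, and no count over the 5 is read as support. Erbb4, Egf, Hbegf, Areg and Ereg stayed under the filter.

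**Figure D1:**
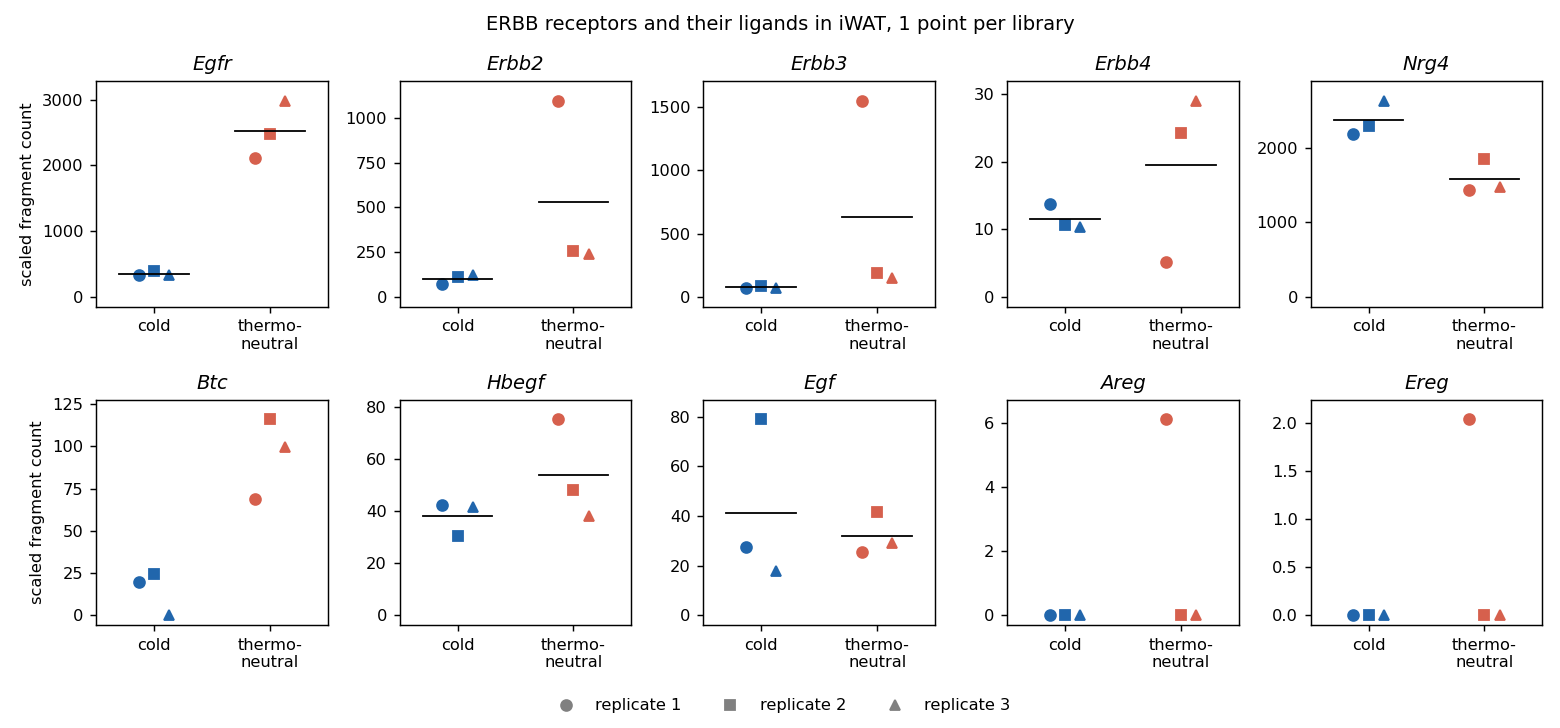
Scaled fragment counts of the 10 members (vertical axes, linear, 1 panel per gene), with cold libraries left in blue and thermoneutral libraries right in red; marker shape gives the replicate number and black lines are group means (not drawn for Btc, Areg and Ereg, which have values at or near 0). Egfr lies at 326 to 392 in cold and at 2111 to 2987 in thermoneutral libraries, and thermoneutral replicate 1 stands alone for Erbb2 and Erbb3.

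The promoters of Egfr and Nrg4, the members called in opposite directions with and without median centring, are shown for reference. Windows of 250 bases before to 50 bases after the RefSeq gene start on GRCm38.p6 were searched for 7 of the 10 members (Egfr, Erbb2, Erbb4, Nrg4, Btc, Egf and Areg). The windows of Erbb3, Ereg and Hbegf were not searched. The Egfr window is chr11:16751953-16752252 on the plus strand and the Nrg4 window is chr9:55283576-55283875 on the minus strand, each written 5′ to 3′ with motif matches in capitals. The Nrg4 start used here lies inside the longer interval that GENCODE gives the gene.
Egfr: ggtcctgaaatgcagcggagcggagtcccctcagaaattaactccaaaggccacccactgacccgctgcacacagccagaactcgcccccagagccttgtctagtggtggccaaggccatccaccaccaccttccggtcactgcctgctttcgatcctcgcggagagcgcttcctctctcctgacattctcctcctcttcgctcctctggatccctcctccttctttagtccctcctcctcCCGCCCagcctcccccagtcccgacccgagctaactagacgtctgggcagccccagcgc
Nrg4: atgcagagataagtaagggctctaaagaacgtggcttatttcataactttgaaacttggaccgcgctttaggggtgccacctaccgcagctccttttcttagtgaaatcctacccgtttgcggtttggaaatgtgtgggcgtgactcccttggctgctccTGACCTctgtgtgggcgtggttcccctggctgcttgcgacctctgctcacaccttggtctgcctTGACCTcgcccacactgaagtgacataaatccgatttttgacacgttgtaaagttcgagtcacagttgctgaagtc
The search covered both strands for the cAMP response element TGACGTCA and its half-site TGACG, which the full element contains, the nuclear receptor half-site AGGTCA, the GC box GGGCGG, the TATA box TATAAA and the E-box CACGTG. In the Egfr window the only match was 1 GC box, read as CCGCCC, that begins 9 bases before the start, and 35.7% of 32851 RefSeq mouse promoters hold that motif. The Nrg4 window held 2 nuclear receptor half-sites, read as TGACCT, that begin 90 and 26 bases before the start, and 16.3% of promoters hold at least 1. GC content was 62.3% in the Egfr window and 51.0% in the Nrg4 window. Among the other members, Areg had a TATA box (13.6% of promoters) and a full cAMP response element (1.79%). Matches are letters in a window and were not tested as binding sites.

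Egfr encodes the receptor for EGF, amphiregulin, TGFα and several other ligands. It lies on chromosome 11 from 16752203 to 16918158, plus strand, in the GENCODE annotation of GRCm38. Egfr had 326, 392 and 331 scaled counts in cold libraries, against 2111, 2479 and 2987 in thermoneutral libraries. The groups did not overlap, as for 52.1% of tested genes in that direction, and the highest cold library was far under the lowest thermoneutral one. Egfr averaged 349.7 ± 37.0 scaled counts in cold and 2526 ± 440.1 in thermoneutral libraries (SD, n = 3 each). It fell by 2.84 on the log2 scale (standard error 0.19, 95% interval -3.30 to -2.38, adjusted p = 0.00114 from limma), which makes it 7.16-fold lower. Of all tested genes, 0.627% had a lower log2 fold change. Relative to the median gene it fell by 2.31 (adjusted p = 0.000923 from limma), and it was called under every alternative run, with or without each single library. In FPKM, Egfr had 2.14, 2.54 and 2.07 in cold against 11.7, 14.2 and 17.7 in thermoneutral libraries. The antisense gene Egfros lies within it, and the sources used here do not state whether counting used strand.

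Markers of adipocyte progenitors and fibroblasts, and of macrophages, moved in the same direction as Egfr. The 8 progenitor and fibroblast markers summed to 13251 to 16663 scaled counts in cold and 32871 to 64307 in thermoneutral libraries, and 7 of 8 fell, 5 of 8 with median centring. Dcn, a matrix proteoglycan, fell by 1.93 and Col1a1, a collagen chain, by 1.90 on the log2 scale. The 6 macrophage markers summed to 2115 to 2936 in cold and 6733 to 10226 in thermoneutral libraries, and 6 of 6 fell, 5 of 6 with median centring. Other lists also held markers that fell as deposited, 4 of 5 for mast cells and 2 of 6 for mature adipocytes. With centring 2 of the 5 and 1 of the 6 fell, and 1 of the 6 rose. Among all tested genes, 35.2% were called lower as deposited and 5.35% with centring, where 10.3% were called higher. In bulk tissue, fewer cells of a type and less RNA per cell cannot be told apart, and the part of these cells in the Egfr difference was not tested.

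The genes whose profile over the 6 libraries was most like that of Egfr were Vasn, 1700019D03Rik and Il1rl2. Likeness was the root mean square difference of gene-centred log2 values, which was 0.14, 0.15 and 0.18 for these genes. Vasn, a membrane protein that binds TGFβ, had 129, 129 and 102 scaled counts in cold and 622, 861 and 1054 in thermoneutral libraries. Il1rl2, the receptor for interleukin 36, had 22.8, 31.6 and 33.2 in cold and 165, 227 and 293 in thermoneutral libraries. As for Egfr, thermoneutral replicate 1 was the lowest of the thermoneutral libraries in each of these genes.

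**Figure D2:**
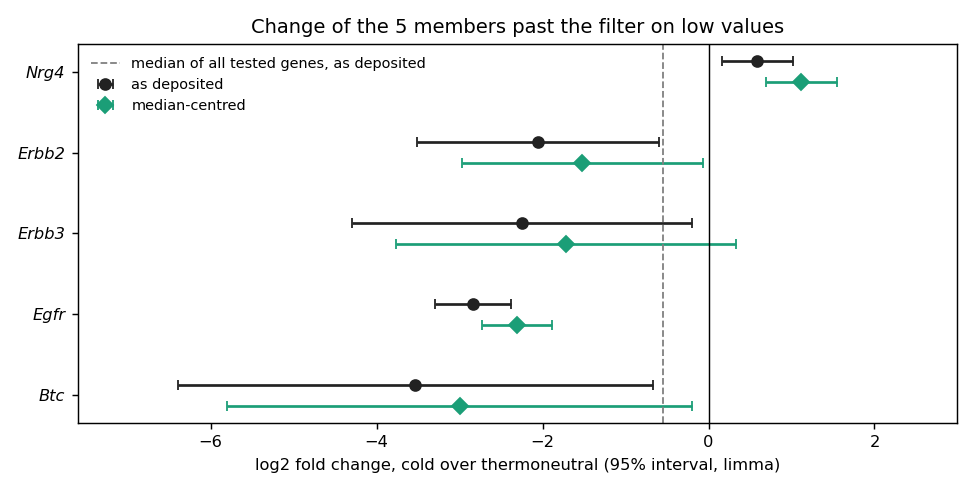
Log2 fold change, cold over thermoneutral (horizontal axis), of the 5 members past the filter, with 95% limma intervals over 3 libraries a group; black circles are values as deposited, green diamonds values after median centring, and the dashed line is the median of all tested genes as deposited, -0.54. Egfr has the narrowest interval among the members that lie below 0, and Nrg4 is the only 1 of the 5 above 0.

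Erbb2, the partner receptor with no ligand of its own, was higher in every thermoneutral library than in any cold one, as were 52.1% of tested genes. The size of its difference rested on thermoneutral replicate 1. Erbb2 had 68.5, 108 and 123 scaled counts in cold libraries, against 1096, 256 and 236 in thermoneutral libraries (chromosome 11, 98412470 to 98437716, plus strand). Thermoneutral replicate 1 was 4.45 times the mean of the other thermoneutral libraries. With all libraries Erbb2 fell by 2.06 on the log2 scale (standard error 0.61, 95% interval -3.51 to -0.60, adjusted p = 0.0369 from limma). Without thermoneutral replicate 1 it fell by 1.34 (adjusted p = 0.0132 from limma), and without any other single library it was not called (adjusted p of 0.0557 to 0.113). After median centring its log2 fold change was -1.52 (adjusted p = 0.142 from limma), and without thermoneutral replicate 1 it was -0.78 (adjusted p = 0.0626). The positions above are those of the annotated gene, and the table gives Erbb2 a joint interval to 98439046 that covers Mien1 on the minus strand. Mien1 had 1542, 1041 and 1040 scaled counts in cold and 1929, 1112 and 1023 in thermoneutral libraries. The part of Mien1 reads in the Erbb2 counts was not tested.

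Erbb3, a receptor with little kinase activity that signals through its partner, showed the same uneven pattern. It had 66.3, 83.3 and 69.6 scaled counts in cold libraries, against 1553, 185 and 148 in thermoneutral libraries (chromosome 10, 128567523 to 128589652, minus strand). The groups did not overlap, as for 52.1% of tested genes in that direction, and thermoneutral replicate 1 was 9.32 times the mean of the other thermoneutral libraries. With all libraries Erbb3 did not pass limma's test (adjusted p = 0.0725), with a log2 fold change of -2.25 and a standard error of 0.85. After median centring its log2 fold change was -1.72, also not called (adjusted p = 0.225 from limma). Without thermoneutral replicate 1, its highest library, it was called and fell by 1.18 (adjusted p = 0.00642). Relative to the median gene it then fell by 0.62 (adjusted p = 0.0415 from limma). In these fits 44.1% and 10.7% of tested genes were called lower. Without any other single library Erbb3 was not called as deposited (adjusted p of 0.0659 to 0.171). The genes closest to it in profile were Emp2, Fads1 and Aim1, at root mean square differences of 0.13, 0.17 and 0.20. Fads1, a fatty acid desaturase, had 852, 1023 and 906 scaled counts in cold and 19463, 2511 and 2559 in thermoneutral libraries.

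Epithelial markers were high in the library that carried the high Erbb2 and Erbb3 values. Krt14, a keratin of basal epithelium, had 3.43, 9.49 and 4.15 scaled counts in cold libraries, against 22333, 4.84 and 38.2 in thermoneutral libraries. Cdh1, the epithelial cadherin, averaged 15.8 ± 4.31 in cold (SD, n = 3) and had 3659, 35.8 and 22.4 in thermoneutral libraries. In thermoneutral replicate 1 none of the 7 epithelial markers was at 0, while 1 to 3 of them were listed at 0 in each other library. Other genes of the family followed the same library. The epithelial ligand gene Tgfa had 12.6, 19.0 and 21.8 scaled counts in cold and 866, 55.2 and 63.9 in thermoneutral libraries. Nrg2, a neuregulin ligand, had 2.28, 5.27 and 4.15 in cold and 260.2, 5.81 and 6.63 in thermoneutral libraries. Grb7, an adaptor that binds ERBB2 and lies near its gene, had 29.7, 32.7 and 50.9 in cold and 738, 32.9 and 52.3 in thermoneutral libraries. The part of epithelial RNA in these differences was not tested.

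**Figure D3:**
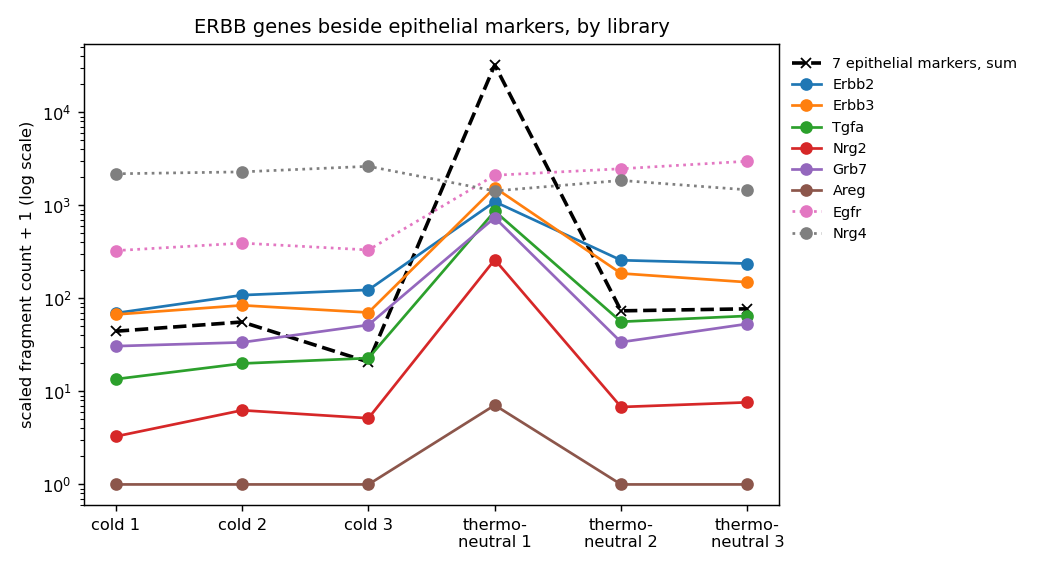
Scaled count plus 1 (vertical axis, log scale) of the summed 7 epithelial markers (black dashes) and of 8 genes, in the 3 cold libraries on the left and the 3 thermoneutral libraries on the right; lines only connect values of 1 gene. Erbb2, Erbb3, Tgfa, Nrg2, Grb7 and Areg peak with the markers in thermoneutral replicate 1, while Egfr and Nrg4 (dotted) do not.

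Erbb4, a receptor for neuregulins, was the least abundant receptor per length in either group. It had 13.7, 10.5 and 10.4 scaled counts in cold libraries, against 5.10, 24.2 and 29.0 in thermoneutral libraries (chromosome 1, 68032186 to 69108059, minus strand), an estimated 5 to 35 fragments a library. Thermoneutral replicate 1 was the lowest of all 6 and the others lay above the cold range, so the groups overlapped. An exact two-sided permutation test gave p = 0.6, where 3 libraries against 3 can give no less than 0.1. Without the filter and with all libraries, Erbb4 had a log2 fold change of -0.42 (adjusted p = 0.642 from limma), and 0.11 with centring (adjusted p = 0.934). In a fit added after the values were seen, thermoneutral replicate 1, the lowest library, was also left out. There, without centring, the log2 fold change of Erbb4 was -1.14 (adjusted p = 0.0208 from limma), where 25.0% of the genes tested were called lower. No conclusion is drawn from that fit, since the library was chosen by its value.

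Nrg4, the ligand best known from brown and beige fat, was the most abundant member per length in both groups. Nrg4 had 2189, 2295 and 2634 scaled counts in cold libraries, against 1431, 1855 and 1470.5 in thermoneutral libraries. Every cold library was above every thermoneutral one, as for 9.09% of tested genes, and the rise was smaller than 2-fold. On the log2 scale the change was 0.59 (standard error 0.18, 95% interval 0.16 to 1.02, adjusted p = 0.0402 from limma), a 1.50-fold rise, and 91.7% of tested genes had a lower one. Relative to the median gene Nrg4 rose by 1.12 on the log2 scale (adjusted p = 0.00968 from limma), a 2.17-fold rise. As deposited, the call was kept without cold replicate 1 and lost without any other single library (adjusted p of 0.0517 to 0.132), while with centring it was lost only without thermoneutral replicate 3 (adjusted p = 0.0515). The annotated gene, chromosome 9 from 55220222 to 55326844 on the minus strand, overlaps the end of Fbxo22 on the plus strand, and the table gives Nrg4 a joint interval that begins with Fbxo22. Fbxo22, a ubiquitin ligase subunit, had 479.8, 502 and 417 scaled counts in cold and 1102, 1258 and 1168 in thermoneutral libraries, opposite in direction to Nrg4. The part of Fbxo22 reads in the Nrg4 counts and FPKM was not tested.

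Btc encodes betacellulin, which binds EGFR and ERBB4. Btc had 19.4, 24.6 and 0.00522 scaled counts in cold libraries, against 68.7, 116 and 99.4 in thermoneutral libraries (chromosome 5, 91357261 to 91402994, minus strand). Each cold value was under each thermoneutral value, as for 52.1% of tested genes. Cold replicate 3, at less than 1 fragment, was far under the other cold libraries. With a log2 fold change of -3.53 (standard error 1.19, 95% interval -6.40 to -0.67) Btc did not pass the test (adjusted p = 0.0530 from limma). With median centring its log2 fold change was -3.00, also not called (adjusted p = 0.136 from limma). Without cold replicate 3, its lowest library, Btc was called and fell by 2.03 (adjusted p = 0.0251 from limma). With median centring it then fell by 1.50 (adjusted p = 0.0324 from limma). In these fits 1735 and 198 tested genes were called lower. Btc was also called as deposited without cold replicate 2 (adjusted p = 0.0464). Without any other single library it was not called as deposited (adjusted p of 0.0718 to 0.125). With centring, no fit without another single library called it (adjusted p of 0.115 to 0.27). On log2 of FPKM plus 0.1 it fell by 2.55 (adjusted p = 0.0217). Serpina3i, Gm4955 and C6 were the genes closest in profile, at root mean square differences of 0.78, 1.09 and 1.13, several times those found for Egfr. C6, a complement component, had 68.5, 74.9 and 22.8 scaled counts in cold and 187, 288 and 336 in thermoneutral libraries.

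Hbegf and Egf overlapped between the groups. Hbegf, a heparin-binding ligand of EGFR and ERBB4, had 42.3, 30.6 and 41.5 scaled counts in cold libraries, against 75.5, 48.4 and 38.2 in thermoneutral libraries (exact permutation p = 0.3, two-sided). Thermoneutral replicate 1 was again the highest. Egf, the founding ligand of EGFR, had 27.4, 79.1 and 17.7 in cold libraries, against 25.5, 41.6 and 29.0 in thermoneutral libraries (exact permutation p = 0.9, two-sided). Its highest value was in cold replicate 2, the library with 202840 scaled counts of muscle markers, and the part of muscle in that value was not tested. The annotation places 3 antisense genes over Egf, whose reads could not be told apart from its own without strand.

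Areg and Ereg, the amphiregulin and epiregulin genes, were listed at 0 in 5 of 6 libraries. Areg had 0, 0 and 0 scaled counts in cold and 6.12, 0 and 0 in thermoneutral libraries. Ereg had 0, 0 and 0 in cold and 2.04, 0 and 0 in thermoneutral libraries. The single values, an estimated 6 and 2 fragments, both came from thermoneutral replicate 1. No fold change is given for either gene, and for both the exact permutation p was 1.0.

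By mean level per length, the order of the members was led by Nrg4 and Egfr in both groups. Nrg4 had 74.8, 70.1 and 77.8 FPKM in cold and 45.0, 57.5 and 46.6 FPKM in thermoneutral libraries. In cold it was followed by Egfr (2.25 ± 0.25 FPKM), Erbb2 (0.95 ± 0.25), Hbegf (0.77 ± 0.13), Erbb3 (0.55 ± 0.069), Egf (0.40 ± 0.32), Btc and Erbb4 (0.044 ± 0.0071), where each ± is the SD of 3 libraries. Only Nrg4 over Egfr and Egfr over Erbb2 were separated from their next lower neighbour in every cold library, among members above Btc. In thermoneutral libraries Egfr (14.5 ± 3.05 FPKM) was followed by Erbb2 (5.62 ± 4.37), Erbb3 (4.76 ± 6.06), Btc (1.55 ± 0.39), Hbegf (1.08 ± 0.39), Egf (0.31 ± 0.082), Areg and Erbb4 (0.074 ± 0.048). There Nrg4 over Egfr, Egfr over Erbb2 and Hbegf over Egf did not overlap, and the other neighbours did. The place of Erbb3 rests on thermoneutral replicate 1, where it had 11.8 FPKM beside 11.7 FPKM for Egfr, while in the other thermoneutral libraries it had 1.40 and 1.12 FPKM, below the 1.90 and 1.62 FPKM of Btc. Nrg4 made up 97.5% to 98.7% of the summed FPKM of the 6 ligands in cold and 93.4% to 94.6% in thermoneutral libraries. That sum leaves out the other EGF-like ligands. Among those, Tgfa and Nrg2 had 9.45 and 4.07 FPKM in thermoneutral replicate 1, and at most 0.70 and 0.15 FPKM in any other library. The ratio of Nrg4 to Egfr FPKM was 35.0, 27.6 and 37.6 in cold libraries and 3.86, 4.06 and 2.63 in thermoneutral libraries. Egfr made up 54.9% to 63.8% of the summed receptor FPKM in cold, and 34.3%, 71.9% and 83.6% in thermoneutral libraries, with the low share in thermoneutral replicate 1.

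The other EGF-like ligands stayed under the filter in all 5 cases. Beside Tgfa and Nrg2, Epgn, the epigen gene, had 2.28, 1.05 and 6.23 scaled counts in cold and 1.02, 0 and 2.49 in thermoneutral libraries. Nrg1 was listed at 0 in all cold libraries and at 3.06, 1.94 and 0 in thermoneutral libraries. Nrg3 was listed at 0 in all 6.

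Among the sheddases and the genes that restrain or degrade the receptors, the calls on the deposited scale were all lower in cold, and most of them were absent relative to the median gene. Of 9 tested sheddases and their partners, 6 fell and 0 rose, beside 35.2% and 6.24% of all tested genes. The 9 had a median log2 fold change of -0.94 beside -0.54 for all tested genes, and with median centring 0 of 9 were called. Adam12, a sheddase that was not called, had a log2 fold change of 0.73. Adam10, a main sheddase of EGF and betacellulin, fell by 1.03 and Adam9 by 0.98 on the log2 scale. Timp3, an inhibitor of these proteases, fell by 1.08, and Rhbdf1, an inactive rhomboid that assists ADAM17, by 0.88. When each of the 6 libraries was left out in turn, Adam10 and Adam9 were still called in 3 fits, Timp3 in 2 and Rhbdf1 in 1. Of 19 inhibitors and turnover genes 11 fell and 0 rose (median -0.82), beside the same shares. With centring 2 fell and 1 rose, beside 5.35% and 10.3% of all tested genes. Errfi1, a feedback inhibitor that binds the EGFR kinase, had 299 ± 34.7 scaled counts in cold and 699 ± 76.1 in thermoneutral libraries (SD, n = 3 each). It fell by 1.22 (adjusted p = 0.00687 from limma), and by 0.69 with centring (adjusted p = 0.0475). The phosphatase gene Ptprj also fell with centring, by 1.17, and Spry4, an antagonist of RAS signalling, rose by 0.97. Lrig1 and Lrig3, of a family of transmembrane proteins in which LRIG1 restrains ERBB receptors, fell by 1.00 and 1.13 as deposited, and the phosphatase gene Ptpn1 by 1.20. Errfi1 and Ptpn1 were called in all 6 fits that left out a library, Lrig3 in 5 and Lrig1 in 4.

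**Figure D4:**
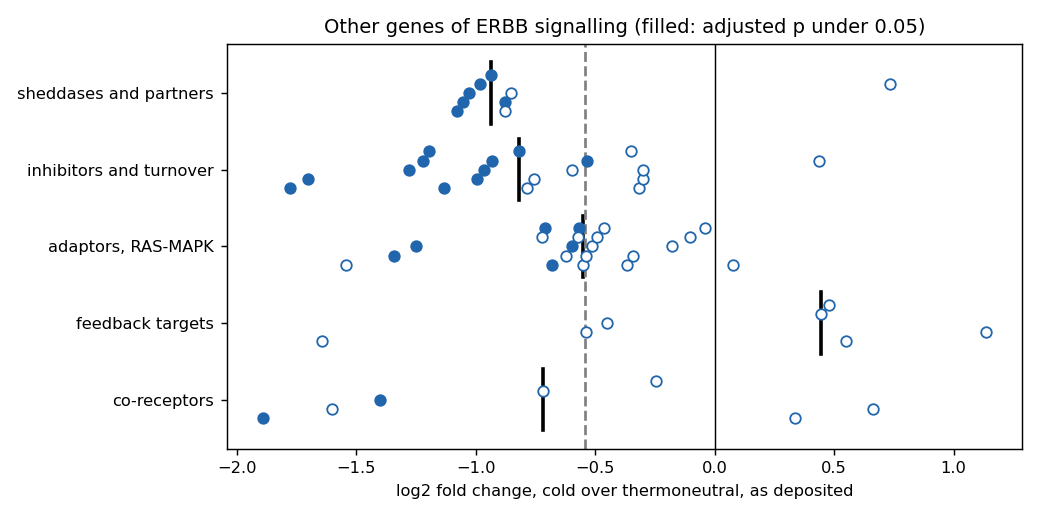
Log2 fold change, cold over thermoneutral, as deposited (horizontal axis), of each tested gene in 5 lists of ERBB signalling genes; filled points had an adjusted p under 0.05 in limma, thick bars are list medians, the dashed line is the median of all tested genes and vertical scatter within a list has no meaning. The filled points all lie below 0, and no feedback target is filled. They include 6 of 9 sheddases and partners and 11 of 19 inhibitors and turnover genes, beside 35.2% of all tested genes called lower.

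Among the signal relays, Gab1 was the gene called lower both as deposited and relative to the median gene. Of 21 adaptors and RAS-MAPK genes 6 fell and 0 rose, beside 35.2% of all tested genes called lower, and the median of -0.55 was close to the -0.54 of all tested genes. With centring 1 of 21 was called. Gab1, a docking protein that carries ERBB signals to PI3 kinase, had 257, 284 and 250.3 scaled counts in cold libraries, against 623, 726 and 663 in thermoneutral libraries. The groups did not overlap, as for 52.1% of tested genes in that direction. Gab1 fell by 1.34 on the log2 scale (adjusted p = 0.00437 from limma) and by 0.81 with centring (adjusted p = 0.0163), and it was called without each single library. Nras fell by 0.68, Araf by 0.60 and the EGFR substrate gene Eps8 by 1.25 as deposited, calls that remained in 3, 2 and 2 of the 6 fits that left out a library, in that order.

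Genes that RAS-MAPK signalling is known to induce were not called in either direction with all 6 libraries as deposited. Of 7 tested feedback targets none was called in limma (0 higher, 0 lower), beside 6.24% and 35.2% of all tested genes. Their median log2 fold change was 0.44, beside -0.54 for all tested genes. With centring the median was 0.98, and 1 of the 7 was called, the MAP kinase phosphatase gene Dusp6, which rose by 1.08. At an unadjusted p under 0.05 as deposited, 1 of the 7 was past the threshold, Myc, with a log2 fold change of -1.64. Dusp4, another phosphatase of this family, had 682, 834 and 1070 scaled counts in cold and 1132, 203 and 247 in thermoneutral libraries, with the high value again in thermoneutral replicate 1. Without that library Dusp4 rose by 1.91 (adjusted p = 0.00375 from limma) and Myc fell by 0.99 (adjusted p = 0.0150). Then 2 of the 7 were called higher and 1 lower, beside 933 and 5134 of the 11650 tested genes. With centring as well, in a fit added after the values were seen, 4 of the 7 were called higher and 0 lower. In that fit 1686 tested genes were called higher and 1245 lower. The cyclin gene Ccnd1 had 785, 739 and 705 in cold and 329, 629 and 734 in thermoneutral libraries and overlapped between the groups. Among 7 co-receptors 2 fell as deposited, beside 35.2% of all tested genes. Lrp1 fell by 1.40 and the tetraspanin gene Cd9 by 1.89, and neither was called with centring. Lrp1, a large endocytic receptor, was called without each single library, while Cd9 had 398, 414 and 344 scaled counts in cold and 3703, 1020 and 770 in thermoneutral libraries and was called in 2 of those 6 fits. With centring the glypican gene Gpc1 rose by 1.20.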

How the data were processed

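RNA was extracted from iWAT and sequenced from TruSeq libraries on a NovaSeq instrument. Bowtie 0.12.2 and the builds mm8 and mm10 appear, without roles, in the submitters' processing notes. Per the study's methods, genes with low counts were removed and TMM and CPM were used. The deposited count columns are a signal the authors had scaled, fragment counts divided by 1 size factor per library: below 20 fragments, 94.0% to 94.8% of values lay within 0.02 of a whole multiple of that library's step. The deposited FPKM values were normalized by the authors to library size and transcript length. Table columns were matched to samples by initial and number.

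Genes reaching an FPKM of 1 in 3 or more libraries were tested with limma 3.58.1 (R 4.3.3), without its trend or robust options, on log2(scaled count + 1), where a fold change understates that of low genes. The design allowed edgeR for raw counts, which these are not. Only the limma fit was tested on simulated counts, which held no shift of the median gene and no library that stood apart. The filter, the centring, the permutation test and the profile search were not part of that test. Python 3.11.15 with pandas 2.3.3 handled tables. For 79 symbols with several rows the row of highest mean was used. Marker, pathway and epithelial lists and the members were chosen with earlier results of these data known. Named were all members and other EGF-like ligands, up to 4 called genes of each pathway list by adjusted p or 2 by mean, 2 genes of each marker list, and the 3 nearest profiles of the 3 tested members with the largest changes. Also named, after their values were seen, were Grb7, Fbxo22, Mien1, Myc, Dusp6, Spry4, Ptprj, Gpc1, Adipoq, Lep, Sox10, S100b and the mitochondrial genes. Some Schwann cell markers are not reported here. Depths differed by library and intervals cover only the spread between samples.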

Additional observations from a re-analysis of the deposited data

How the results depend on the processing

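The Egfr fall held its direction and its call in all 26 alternatives run, with log2 fold changes of -3.05 to -2.18. No alternative reversed a tested member. Over the same alternatives Erbb2 lost its call in 17 and Nrg4 in 13, while Btc gained a call in 8 and Erbb3 in 5, and the cause was not tested. Members called higher numbered 1 as reported and 0 without the filter, with a filter on the scaled count, with the study's call rule (unadjusted p under 0.05 and a 2-fold change) and without cold replicate 2 and thermoneutral replicate 1 together. Members called lower numbered 2 as reported, 1 without the filter, with median centring and with quantile normalization, and 4 with the study's rule and without both of those libraries. Genes called as reported numbered 727 higher and 4097 lower, 1200 and 623 with centring, 1083 and 704 with quantile normalization, and 490 and 2168 with the study's rule. Leaving out 1 library gave 0 to 1 members higher, 1 to 3 lower, 373 to 933 genes higher and 1061 to 5134 lower.

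Combinations were added after the data had been seen. Centring with no filter gave 1 member and 321 genes lower, and no filter without thermoneutral replicate 1 gave 0 members higher and 4 lower. Centring with 1 library left out gave 0 to 1 members higher, 1 to 2 lower, and 620 to 1686 genes higher. Genes lower were then 382, 270 and 198 without cold replicate 1, 2 or 3, and 1245, 156 and 153 without thermoneutral replicate 1, 2 or 3.

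Same-numbered libraries did not deviate together (correlations of -0.0043, 0.038 and 0.066 over genes), so the numbers were not taken as pairs. With the replicate block 0 members were called higher and 1 lower, Egfr, and with the block and centring 0 and 1, with 238 genes lower. edgeR and DESeq2 were planned for recovered fragment counts and were not run, since the share of low values that came out as whole fragments, 94.0% to 94.8%, was under the share set for recovering counts. The low counts of Erbb4, Egf, Areg and Ereg limit what could be detected for them.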

Other observations

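The other cell type markers also differed in how they moved. Of 6 mature adipocyte markers 2 fell as deposited, beside 35.2% of all tested genes. With centring 1 fell and 1 rose, beside 5.35% and 10.3%. Adipoq, the adiponectin gene, fell by 1.04 on the log2 scale and was not called with centring (-0.51, adjusted p = 0.209 from limma). The leptin gene Lep fell by 2.94, and by 2.41 with centring. Fabp4, a fatty acid-binding protein, had a log2 fold change of 0.71 and was not called as deposited. With centring Fabp4 rose by 1.25 (adjusted p = 0.047 from limma). Of 5 mast cell markers 4 fell as deposited and 2 with centring. Among them the protease gene Mcpt4 fell by 1.84, and by 1.31 with centring, while Kit was not called. Of 4 endothelial markers 0 were called in limma and 0 had an unadjusted p under 0.05, and Cdh5 had a log2 fold change of -0.01. Among Schwann cell markers, the cell type in which Erbb3 is best known, Sox10 fell by 1.49, S100b rose by 3.11 and Mbp was not called. With centring Sox10 was not called (-0.96, adjusted p = 0.0929 from limma) and S100b rose by 3.64. Of 6 T cell and innate lymphoid markers 1 was tested and was not called. Gata3, which these cells share with epithelium, had 16.0, 16.9 and 2.08 scaled counts in cold and 581, 25.2 and 23.2 in thermoneutral libraries, and Il1rl1 had 20.6, 43.2 and 36.3 in cold and 76.5, 78.4 and 87.9 in thermoneutral libraries. Of 6 muscle markers 0 were called with all libraries. Without cold replicate 2 all 6 fell, where 2635 of all tested genes were called lower.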
